A study of Mus musculus with 35 samples.

Results

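The cytosolic ribosomal protein genes are the genes for the proteins of the 40S and 60S subunits, the small and large parts of the ribosome that translates nuclear mRNA. They were taken from the deposited expression matrix of a mouse brain RNA-seq study by symbol: names that start with Rpl or Rps and a digit, plus Rpsa, Rplp0, Rplp1 and Rplp2. The kinases named Rps6k, names that hold "-ps" and names that end in l1 were left out. The rule found 83 of 14870 rows. Of these, 77 are core subunits: 31 of the small subunit, 43 of the large subunit and the 3 stalk proteins Rplp0, Rplp1 and Rplp2. The other 6 are the paralogues Rpl36al and Rps27l, the retrocopies Rps27rt, Rpl37rt and Rps4l, and Rps19bp1, whose product binds a ribosomal protein and which shares only the stem of the name.

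The small subunit decodes the mRNA, the large subunit joins the amino acids, and the stalk recruits the factors that drive elongation. Cells need the subunits in matched amounts, and the mRNAs of nearly all ribosomal proteins begin with a run of pyrimidines, the 5′ terminal oligopyrimidine (TOP) tract, through which mTORC1 signalling sets their translation. In neurons, ribosomal protein mRNAs are also found in dendrites and axons, away from the cell body. The genes are short, highly expressed and widely copied: mouse chromosomes carry many retrocopies, intronless copies made from ribosomal protein mRNAs.

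Bulk RNA was read from tissue punches of mouse medial prefrontal cortex. Animals were either wild type (WT) or lacked Shank3 function (KO), Shank3 being a scaffold protein of excitatory synapses. Mice had water (control), antibiotics (abx), acetate, or antibiotics together with acetate (abx_and_acetate). The 35 libraries were 6 WT_control (3 female, 3 male), 4 KO_control (2, 2), 5 WT_acetate (1, 4), 5 KO_acetate (2, 3), 4 WT_abx (2, 2), 3 KO_abx (1, 2), 4 WT_abx_and_acetate (1, 3) and 4 KO_abx_and_acetate (3, 1), with the sex as labelled. No label read here gives the Shank3 allele, the age of the mice, or the names and doses of the antibiotics. Nothing says that each library came from a separate animal, so a p-value here measures only how these samples scatter, which may be technical. In bulk tissue, fewer cells of a type and less RNA per cell cannot be told apart.

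The libraries held 12.8 to 28.0 M (mega) reads with a median of 21.8 M, recovered from the deposited values, and RNA integrity numbers of 8.8 to 9.3. The targeted gene was checked first. Across 16 KO libraries Shank3 ran from 4.07 to 5.11 log2 CPM (log2 of reads scaled to library size), against 8.22 to 8.85 across 16 of the 19 WT libraries. The libraries labelled WT_acetate 2, WT_acetate 5 and WT_abx 4 stood between, at 7.80, 8.08 and 7.48, and also had raised Acr, the neighbouring gene (4.46, 3.62 and 4.56, against at most 0.83 in the other WT libraries and at least 5.04 in KO). Y-linked genes went against the labelled sex in the libraries labelled WT_abx 3 and WT_acetate 2, 4 and 5. Counts for KO against WT under abx, under acetate and over treatments are therefore also given without these 5 libraries. The same holds for abx and for acetate against control in WT. Leaving them out keeps only WT_abx 1 and 2 and WT_acetate 1 and 3. For the shares, the interactions and abx_and_acetate against abx in WT, no such result is given by itself. Markers of cortex were high in all libraries (Snap25 10.9 to 11.5, Slc17a7 10.5 to 11.1 log2 CPM). The choroid plexus marker Ttr varied more, from -5.47 to 6.54.

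The TOP tract can be seen in the genome around the start sites of these genes. RefSeq start-site windows on GRCm38 were matched by symbol for 61 members, 57 of them core. Each sequence below runs from 12 bases before the annotated start through the first 18 transcribed bases, with runs of at least 6 pyrimidines that begin with C in capitals. A run that goes on past the end of the window is printed only up to that end. They show members of each subunit and the stalk that the results return to.
Rps6, the S6 kinase substrate, chr4:86857350-86857379, minus strand: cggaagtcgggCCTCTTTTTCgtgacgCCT
Rps24, chr14:24490666-24490695, plus strand: gcgctggggtCCTTCCTTgcgcgttgatat
Rpl28, chr7:4792953-4792982, plus strand: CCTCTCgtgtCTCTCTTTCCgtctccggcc
Rpl31, chr1:39367839-39367868, plus strand: CCTCCTCgCCTCCCCgtgacccggaagttg
Rpl35, chr2:39005114-39005143, minus strand: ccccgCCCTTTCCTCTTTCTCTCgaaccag
Rpl35a, chr16:33056470-33056499, plus strand: gggcttgCCTTCCTCTTTCCgccatcttgg
Rplp2, of the stalk, chr7:141447639-141447668, plus strand: gtcagcgtCTTCCTTTCgccgccggacgcc

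Each window holds a tract over or beside its annotated start. A tract, defined as a C between 10 bases before and 15 bases after the start that opens at least 6 pyrimidines on the gene's strand, was found in 33 of 57 core members (57.9%) and in 2944 of 10936 other protein-coding genes (26.9%). CCGGAA, the core letters of ETS-family sites, searched on both strands over 250 bases before to 50 after the start, was found in 32 core members (56.1%) against 28.2% of the others. Its reverse complement TTCCGG can overlap a tract. AAGATGG, a core of YY1 sites, was found in 9 (15.8%) against 7.97%, GGGCGG in 35 (61.4%) against 67.2%, and TATAAA in 6 (10.5%) against 9.01%. These matches describe letters near annotated starts. Rps24 and Rpl35a also have other RefSeq starts.

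The members together took about 0.9% of the summed CPM in most groups, and WT_abx stood highest. The summed share was 0.897% ± 0.0271 (SD, n = 6) in WT_control and 0.888% ± 0.0669 (n = 4) in KO_control. In WT_abx the 4 libraries gave 1.02%, 0.990%, 0.900% and 1.14%, a mean of 1.01% ± 0.100. In KO_abx the 3 libraries gave 0.888%, 0.938% and 0.858%, a mean of 0.895% ± 0.0407. WT_abx thus overlapped KO_abx only through WT_abx 3, and the highest share of all 35 libraries was that of WT_abx 4. In both of these libraries some genes went against a label. The acetate groups stood between these levels, at 0.935% ± 0.0648 (n = 5) in WT and 0.952% ± 0.0902 (n = 5) in KO. The groups with both agents had 0.943% ± 0.0382 (n = 4) in WT and 0.954% ± 0.0356 (n = 4) in KO. The KO_acetate libraries were spread from 0.837% to 1.05%.

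**Figure D1:**
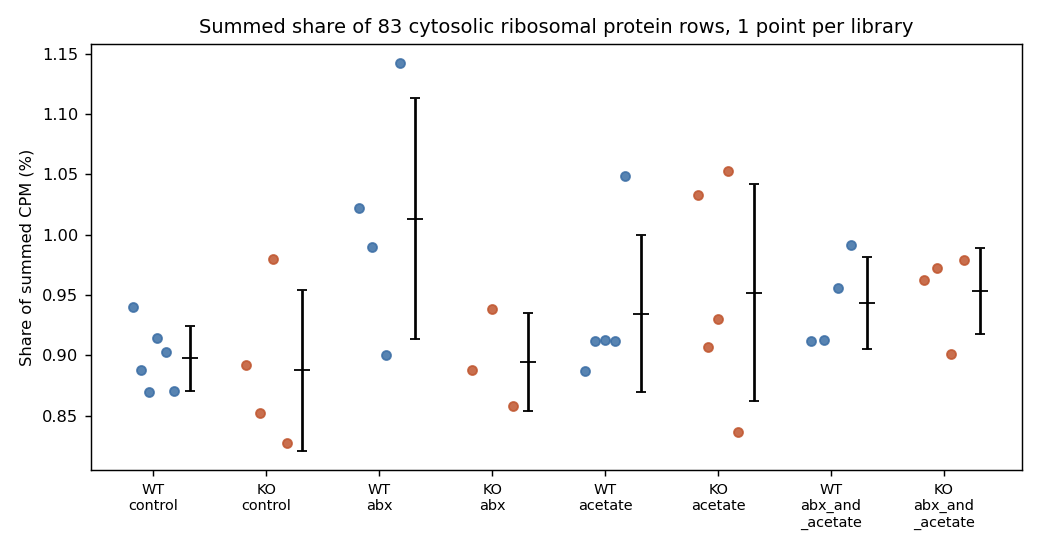
Summed share of CPM of the 83 members (%, y axis) in each of the 8 groups (x axis); each point is a library (blue WT, orange KO), the tick the group mean and the whiskers its SD. WT_abx has the highest mean, 1.01%, and its libraries run from 0.900% to 1.14%, while the 3 KO_abx libraries lie between 0.858% and 0.938%.

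The members moved up and down together from library to library. Of the 83 members, 78, 77 and 80 lay above their own mean over the 35 libraries in WT_abx 1, 2 and 4, but only 16 in WT_abx 3. In KO_abx the counts were 7, 44 and 5. Control libraries differed as much: 4, 5, 78 and 2 members lay above their mean in KO_control 1 to 4. The median deviation of the members from their means had a pooled SD within groups of 0.0962 log2 units. A shift of the whole family between groups of 3 to 6 libraries is read against that spread.

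The members' mean levels ran from -3.60 to 8.79 log2 CPM, with a median of 6.53 against 4.46 over all rows. Scaled to transcript length, core members other than Rps12 had a median of 6.85 log2 CPM per kb and ran from 3.41 to 8.77. The small subunit had a median of 6.97 on this scale and the large subunit 6.77, and the stalk proteins lay between 6.02 and 8.77. The highest were Rplp1 of the stalk (8.77 log2 CPM per kb), Rpl13a (8.58) and Rps15 (8.38). The lowest were Rps12, Rps27rt (2.77) and Rps27l (3.25). Levels per kb depend on the transcript model: Rps15a and Rps20 were scaled by models of 5179 and 3706 bases, longer than most members.

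Members were steadier between libraries of a group than most genes. Their SD within groups had a median of 0.119 log2 units against 0.173 over all rows. Members also stood higher in level (median 6.53 against 4.46 log2 CPM), and rows of like level were not compared. The steadiest were Rpl3 (0.0732), which lines the peptidyl transferase centre, Rpl4 (0.0751), which lines the exit tunnel, and Rpl7a (0.0757). The most variable were Rps12 (3.11), Rps27rt (0.709) and Rps27l (0.261).

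No member passed an adjusted p of 0.05 in any of the 16 comparisons. The test was limma's moderated test with Benjamini-Hochberg adjustment over all 14870 rows. Whether KO and WT differ was asked within each treatment and over treatments. In control mice the members' log2 folds of KO against WT had a median of -0.03, and 64 of 83 were below 0 against 50.7% of all rows. Short rows that are no member, with a mean of at least 3 log2 CPM, also leaned below 0. The share was 59.6% of 57 under 600 bases (median -0.01) and 73.4% of 319 from 600 to 1000 bases (median -0.04). No member had an unadjusted p under 0.05, where 4% of all rows did and 0.0202% were called. The smallest p was that of Rpl3 (log2 fold -0.08 ± 0.05 SE, adjusted p = 0.9995), whose KO_control libraries read 8.60, 8.64, 8.82 and 8.60 log2 CPM against a WT_control range of 8.67 to 8.84 (median 8.72). KO_control 3 lay within the WT range and the other three below it. Without KO_control 3 the members' median was -0.08, and without KO_control 4 it was 0.01.

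Under antibiotics KO stood below WT in nearly the whole family, by about 0.2 log2 units. The median log2 fold of the members was -0.19 against 0.000886 over all rows, and 80 of 83 were below 0 against 49.7% of all rows. Short rows that are no member leaned the same way. Below 0 were 87.7% of the 57 under 600 bases (median -0.17) and 84.0% of the 319 from 600 to 1000 bases (median -0.10). An unadjusted p under 0.05 was reached by 49 members, all lower in KO, where 3.78% of all rows reached it. No member was called, with 0.0134% of all rows called, and the smallest adjusted p of a member was 0.995. By subunit, 30 of 31 small-subunit proteins were below 0 (median -0.20), as were 42 of 43 of the large subunit (median -0.19) and the 3 stalk proteins (median -0.18).

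Rpl28, a large-subunit protein absent from yeast, had the smallest p. It read 7.01, 6.95, 6.89 and 7.12 log2 CPM in the WT_abx libraries and 6.71, 6.78 and 6.77 in KO_abx, so that the groups did not overlap (log2 fold -0.24 ± 0.07, adjusted p = 0.995). WT_control spanned 6.73 to 6.94 with a median of 6.83, so WT_abx reached above the control range and KO_abx lay at its lower end.

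Rpl31, which lies at the mouth of the exit tunnel, read 6.45, 6.42, 6.06 and 6.29 in WT_abx and 5.90, 6.04 and 5.94 in KO_abx (log2 fold -0.34 ± 0.11, adjusted p = 0.995). The groups were separated by only 0.02 at their nearest libraries, WT_abx 3 and KO_abx 2. Rpl27 read 3.87, 3.71, 3.52 and 3.96 in WT_abx and 3.17, 3.01 and 3.66 in KO_abx and overlapped (log2 fold -0.47 ± 0.15, adjusted p = 0.995). With the reads of its copy Rpl27-ps3 added, its log2 fold was -0.21 ± 0.08.

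The fixed examples gave similar sizes. In the small subunit, the log2 fold of KO against WT under antibiotics was -0.16 ± 0.09 for Rpsa, which also serves as a laminin receptor, -0.15 ± 0.08 for Rps3, -0.15 ± 0.08 for Rps6 and -0.15 ± 0.10 for Rps19, mutated in Diamond-Blackfan anaemia. Rps27a, made as a fusion with ubiquitin, had -0.22 ± 0.09. In the large subunit, Rpl3 had -0.17 ± 0.06, Rpl4 -0.15 ± 0.06, Rpl24 -0.21 ± 0.08 and Rpl26 -0.22 ± 0.09. Rpl11, which carries 5S rRNA with Rpl5 and binds Mdm2, had -0.14 ± 0.08. Of the stalk, Rplp0 had -0.15 ± 0.07, Rplp1 -0.18 ± 0.10 and Rplp2 -0.27 ± 0.10. The members not below 0 were Rpl10 (0.02), Rps27rt (0.21) and Rps12 (0.61 ± 2.28), and Rpl5 stood at -0.02. All 4 share sequence with other rows, as described below. Of the other matched rows, Rpl36al had -0.18 ± 0.09, Rps4l -0.40 ± 0.18, Rps27l -0.32 ± 0.20, Rpl37rt -0.16 ± 0.17 and Rps19bp1 -0.08 ± 0.11.

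The count of 49 rested on few libraries. It was 10 without WT_abx 4, 23 without WT_abx 1, 6 without KO_abx 3 and 29 without KO_abx 1. Without the 5 libraries whose genes went against a label it was 42, where the median was -0.22. That fit keeps only WT_abx 1 and 2 of the group and leaves out WT_abx 3, its library with the lowest share. The count was 31 with RIN in the model or with only the 2 groups fitted, and 14 with each library's trend on transcript length removed. The median of the 83 folds stayed below 0 in each of these fits, from -0.25 to -0.11. Here and below, the share of all rows past that unadjusted p is not given for such altered fits. Their counts of members therefore have no background beside them.

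Markers of blood, oligodendrocytes and endothelium stood lower in KO in the same comparison, and their part in it was not tested. The 5 blood markers were all below 0 in KO_abx against WT_abx (median -0.92, 2 with an unadjusted p under 0.05). Their summed CPM was 132 to 255 in WT_abx and 64.6 to 131 in KO_abx. The 6 oligodendrocyte markers were below 0 (median -0.39), with sums of 1981 to 3507 in WT_abx and 1082 to 4030 in KO_abx. The 5 endothelial markers were below 0 (median -0.20), with sums of 201 to 306 and 174 to 275. Astrocyte sums were 2844 to 4288 in WT_abx and 2701 to 3612 in KO_abx. Neuron sums in KO_abx lay within the WT_abx range (6576.5 to 6892 against 5778 to 7504). So did those of microglia (237 to 274 against 217 to 298), of striatum and of choroid plexus and meninges (39.7 to 99.6 against 31.6 to 297). The choroid plexus and meninges range in WT_abx was wide because of WT_abx 4. The markers' list score, a mean deviation from their own means, was 3.22 there. It was 0.00169, -1.03 and -0.516 in WT_abx 1, 2 and 3. WT_abx 4 is also the library with the highest member share. None of the markers above was at 0 reads in either group.

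Under acetate alone, and under both agents, the members were split about evenly in sign. In acetate the median log2 fold of KO against WT was -0.00402 with 43 of 83 below 0 (all rows 50.9%), and 4 members had an unadjusted p under 0.05, where 5.97% of all rows did and 0.00672% were called. These were Rpl28 (0.15 ± 0.06), Rps12, Rpl36al (0.16 ± 0.07) and Rpl5 (0.25 ± 0.11), and their smallest adjusted p was 0.827. None of the 83 had an unadjusted p under 0.05 without the libraries whose genes went against a label, which keeps only WT_acetate 1 and 3. With both agents the median was -0.01 with 48 of 83 below 0 (all rows 49.2%), and only Rpl37rt had an unadjusted p under 0.05 (0.34 ± 0.16), where 3.7% of all rows did and 0.0134% were called.

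On average over the 4 treatments, KO stood below WT in 80 of 83 members, by a median of 0.06 log2 units (log2 fold -0.06, all rows 49.6% below 0). Of short rows that are no member, 71.9% of the 57 under 600 bases were below 0 (median -0.03). So were 76.5% of the 319 from 600 to 1000 bases (median -0.03). This comparison is the mean of the 4 within-treatment differences, so it is not separate from the antibiotic result. The median under antibiotics lay farthest from 0, and under acetate and under both agents the members were split about evenly in sign. An unadjusted p under 0.05 was reached by 15, all lower in KO, where 5.25% of all rows reached it and 0.0202% were called. Rpl13 had the smallest p (-0.12 ± 0.04, adjusted p = 0.928). The count was 2 when libraries were scaled by plain totals. Leaving out single libraries moved it from 3 (without WT_acetate 5) to 35 (without WT_abx 3), and it was 24 without KO_control 3, 26 without KO_abx 2 and 4 without KO_abx 3. It was 6 to 9 without WT_control 5, KO_control 1 or 4, KO_acetate 2 or 5, WT_abx 1, 2 or 4, KO_abx 1, WT_abx_and_acetate 4 or KO_abx_and_acetate 3, and 6 without the 5 libraries whose genes went against a label.

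**Figure D2:**
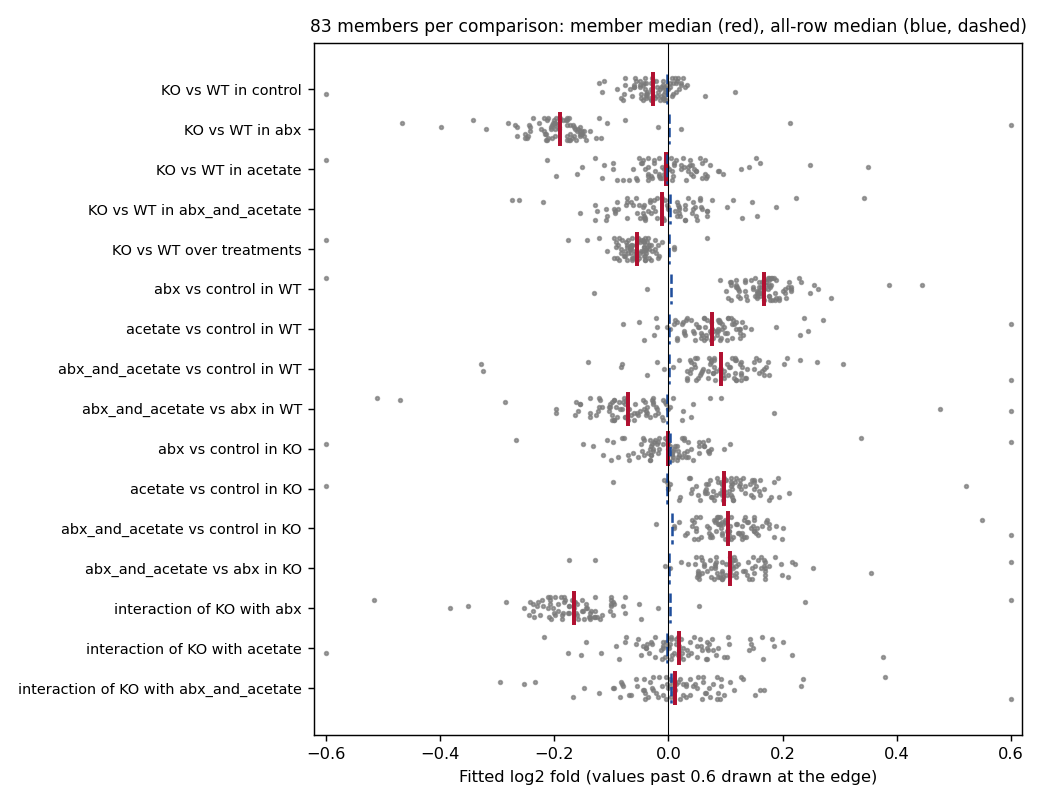
Fitted log2 folds (x axis) of the 83 members in each of the 16 comparisons (y axis); each grey point is a member, the red bar is the members' median and the dashed blue bar the median of all 14870 rows. The members' median lies farthest from 0 in KO against WT under abx (-0.19) and in abx against control in WT (0.17).

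The second question was what antibiotics and acetate did within each genotype. In WT mice, antibiotics went with higher values of nearly all members. The median log2 fold of WT_abx against WT_control was 0.17, 80 of 83 were above 0, and 48 had an unadjusted p under 0.05, all higher, where 9.05% of all rows did. A set of 57 short rows that are no member had transcripts under 600 bases and a mean of at least 3 log2 CPM. Of this set, 17.5% were below 0 (median 0.09). No member was called, nor any other row (0%), and the smallest adjusted p of a member was 0.302. The comparison shares its WT_abx libraries with that of KO against WT under antibiotics, so the pair are not separate evidence. By subunit, 30 of 31 small-subunit proteins were above 0 (median 0.17), as were 42 of 43 of the large subunit (median 0.17) and the 3 stalk proteins (median 0.13).

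Rpl4 and Rpl3 were among the members with the smallest p. Rpl4 read 8.57, 8.54, 8.45 and 8.64 in WT_abx against 8.32 to 8.43 (median 8.39) in WT_control, with no overlap (log2 fold 0.17 ± 0.05, adjusted p = 0.302). In KO_abx it read 8.39, 8.47 and 8.32, around the WT_control range. Rpl3 read 8.84, 8.98, 8.87 and 8.93 in WT_abx against 8.67 to 8.84 in WT_control (log2 fold 0.16 ± 0.05, adjusted p = 0.303). Its lowest WT_abx library and highest WT_control library met at 8.84.

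Other members with an unadjusted p under 0.05 in WT under antibiotics included Rps15 (0.20 ± 0.08), Rps19 (0.20 ± 0.08), Rpl11 (0.18 ± 0.07) and Rplp0 (0.13 ± 0.06), with adjusted p between 0.402 and 0.473. The 3 not above 0 were Rps12, Rps19bp1 (-0.13) and Rpl12 (-0.04). The highest log2 folds were those of Rps27rt (0.44), Rps27l (0.39), a paralogue that p53 induces, and Rpl10 (0.28). The count of 48 was 8 without WT_abx 4, 24 without WT_abx 1 and 21 with the length trend removed. It was 38 without the 5 libraries whose genes went against a label, which keeps only WT_abx 1 and 2. The median stayed above 0 in these fits, at 0.11 to 0.23. All 5 blood markers (median 0.29) and all 6 oligodendrocyte markers (median 0.18) were also above 0, and 3 of 5 endothelial markers were below 0; their part was not tested.

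In KO mice the members' values under antibiotics were split about evenly around control. The median log2 fold of KO_abx against KO_control was -0.00157, and 44 of 83 were below 0, against 78.9% of the 57 short rows (median -0.06). Only Rpl10 had an unadjusted p under 0.05 (0.34 ± 0.15, adjusted p = 0.9994), where 3.3% of all rows did and 0.0134% were called. The difference between genotypes in the response to antibiotics was tested as an interaction. Its median was -0.16 with 80 of 83 below 0, against 89.5% of the 57 short rows that are no member (median -0.14). Only 5 members had an unadjusted p under 0.05, all lower, where 2.47% of all rows did and 0% were called. Among them were Rpl28 (-0.21 ± 0.09, adjusted p = 0.9997), Rps4l (-0.51 ± 0.24), Rpl26 (-0.24 ± 0.11) and Rps16 (-0.24 ± 0.12). The count was 0 without WT_abx 1, WT_abx 4, WT_control 2, WT_control 3 or KO_control 3, and 1 without KO_abx 3. It was 32 without WT_abx 3, 18 without KO_abx 2, 15 without KO_control 4 and 9 without WT_control 1, so a genotype difference in the antibiotic response was not shown for any member.

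Acetate went with slightly higher values in both genotypes, in members and in short rows that are no member. In WT the median log2 fold was 0.08 with 7 of 83 below 0. Among the 57 short rows 21.1% were below 0 (median 0.08). An unadjusted p under 0.05 was reached by 6 members, all higher, where 9.41% of all rows reached it and 0.00672% were called. The members' 6 of 83 was thus no more than the background. Rpl35 had the smallest p: it read 5.90, 6.07, 6.001, 5.99 and 6.39 in WT_acetate against 5.71 to 5.997 (median 5.83) in WT_control (0.24 ± 0.08, adjusted p = 0.322). WT_acetate 5 stood apart above the others. The count was 1 without WT_acetate 5 or without WT_control 2 or 3, 13 without WT_control 1, and 0 without the libraries whose genes went against a label. The last of these fits keeps only WT_acetate 1 and 3.

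In KO the median log2 fold of acetate against control was 0.10 with 6 of 83 below 0, against 24.6% of the 57 short rows that are no member (median 0.10). An unadjusted p under 0.05 was reached by 10 members, all higher. Among all rows, 13% reached that unadjusted p and 0% were called, so the members' 10 of 83 was near the background. Rpl3 had the smallest p and an adjusted p of 0.205: it read 8.94, 8.86, 8.86, 8.90 and 8.72 in KO_acetate against 8.60, 8.64, 8.82 and 8.60 in KO_control (0.19 ± 0.05). KO_acetate 5 and KO_control 3 were the libraries that overlapped. Rpl28 had 0.16 ± 0.06, Rpl36al 0.18 ± 0.08 and Rps6 0.14 ± 0.07, with adjusted p of 0.299, 0.306 and 0.356. The count was 35 without KO_acetate 5, 26 without KO_control 3, 5 without KO_control 2, 4 without KO_control 1, 2 without KO_acetate 1 or KO_acetate 4, and 1 without KO_control 4. The share of all rows in those fits is not given here. With the length trend removed the median was 0.01. The library KO_acetate 1 held the highest summed oligodendrocyte markers of its group, 9312 CPM against a group minimum of 1255, and striatal markers in the group ran from 112 to 782 CPM; their part was not tested.

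The interaction of genotype with acetate had a median of 0.02 with 30 of 83 below 0. Only Rpl3 (0.16 ± 0.07) and Rpl28 (0.18 ± 0.09) had an unadjusted p under 0.05, where 3.65% of all rows did and 0% were called. The interaction with both agents had a median of 0.01 with 35 of 83 below 0. None had an unadjusted p under 0.05, where 4.53% of all rows did and 0% were called.

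Both agents together also went with higher values against control. In WT the median log2 fold was 0.09 with 8 of 83 below 0, against 31.6% of the 57 short rows that are no member (median 0.05). An unadjusted p under 0.05 was reached by 12 members, 11 of them higher, where 14.4% of all rows reached it and 0.726% were called. Rps15a (0.16 ± 0.06, adjusted p = 0.174) was among those with the smallest p. The share of members, 12 of 83, was near that of all rows. The count ran from 3 (without WT_abx_and_acetate 4) to 20 (without WT_control 1), and it was 5 without WT_control 3, 7 without WT_control 2 and 6 without WT_abx_and_acetate 3.

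In KO the median log2 fold of both agents against control was 0.11, with Rpl5 (-0.02) the only member below 0. Among the 57 short rows that are no member, 14.0% were below 0 (median 0.08). An unadjusted p under 0.05 was reached by 6, all higher, where 7.42% of all rows reached it and 0% were called. Rpl3 (0.15 ± 0.06) and Rpl7a (0.15 ± 0.06) had the smallest p, each with an adjusted p of 0.555. The count was 35 without KO_control 3, 10 without KO_abx_and_acetate 3, 1 without KO_abx_and_acetate 4 and 0 without KO_control 4. KO_control 3 is the control library in which 78 of 83 members lay above their means.

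Adding acetate to antibiotics went with different signs in the genotypes, with few members past even an unadjusted p. In WT the median log2 fold of abx_and_acetate against abx was -0.07 with 72 of 83 below 0, against 61.4% of the 57 short rows that are no member. An unadjusted p under 0.05 was reached by 3 members, all lower, where 6.12% of all rows reached it and 0% were called. They were Rpl37rt (-0.51 ± 0.16, adjusted p = 0.72), Rps27l (-0.47 ± 0.18) and Rps29 (-0.29 ± 0.12). The count was 18 without WT_abx 3. In KO the median was 0.11 with 3 of 83 below 0, against 7.02% of the 57 short rows (median 0.15). An unadjusted p under 0.05 was reached by 4 members, all higher, where 2% of all rows reached it and 0% were called. They were Rpl15 (0.19 ± 0.08), Rpl28 (0.17 ± 0.07), Rplp2 (0.22 ± 0.10) and Rpl31 (0.22 ± 0.11), and the count was 12 without KO_abx 2 and 9 without KO_abx_and_acetate 3. The difference between these genotype values was not tested.

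The members' shared movement was measured with a list score, the mean deviation of the core members other than Rps12 from their own means in a library. After group and sex were removed, the members correlated with it at a median Pearson r of 0.846 over 35 libraries. Each core member other than Rps12 is part of the score, and the remaining members are not. All points share library and scaling, and r is given as a description. The small subunit had a median r of 0.880, the large subunit 0.829, and the stalk proteins lay between 0.802 and 0.873. Rps24 (0.958), Rpl35a (0.943) and Rps7 (0.941) followed the score most closely. Rpl12 (0.108), Rps12 (0.119) and Rpl10 (0.140) followed it least. An r above 0.7 was found for 64 members and for 90 of the 14787 other rows (0.609%). Over the 76 core members without Rps12, the first principal component held 62.7% of the variance within groups and the second 7.38%. Members with and without the TOP tract had median r of 0.822 and 0.864.

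Among the rows outside the rule that were most like the score were Rps12-ps3 (0.921), Ndufb11 (0.904), Anapc13 (0.880), Eef1b2 (0.867), Gm11808 (0.865), Smdt1 (0.854), Cox5b (0.850), Mt3 (0.848) and Ftl1 (0.847). Eef1b2 encodes an elongation factor subunit, and Ndufb11 and Cox5b subunits of the respiratory chain. Of ribosomal relatives outside the rule, Rpl22l1 had 0.825, Rack1 0.811, Fau 0.573 and Rpl7l1 0.197.

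Transcript length moved with this likeness, and its part in the results was not tested. The 81 members with a transcript model had a median length of 878 bases, against 3175 over all rows with one. Among rows that are no member and have a mean of at least 3 log2 CPM, the median r with the score was 0.620 for the 57 shortest (under 600 bases), 0.389 for the next 319, and -0.10 for the longest. Their median log2 fold of KO against WT under antibiotics ran in the same order, from -0.17 in the shortest through -0.10, -0.05 and -0.01 to 0.04 in the longest. In WT under antibiotics it ran from 0.09 to -0.03. Per library, the slope of the same rows' deviations on transcript length had r = -0.665 (Spearman rho -0.704, n = 35) with the score, and -0.614 without the 2 farthest libraries. Group and sex were not removed for these values. With them removed the slope's r was -0.597. Within WT libraries it was -0.436 and within KO libraries -0.898. Depth had r = -0.308 and RIN r = -0.128, also without that removal. With the length trend removed, the members' median log2 fold was -0.11 for KO against WT under antibiotics and 0.11 for WT under antibiotics.

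**Figure D3:**
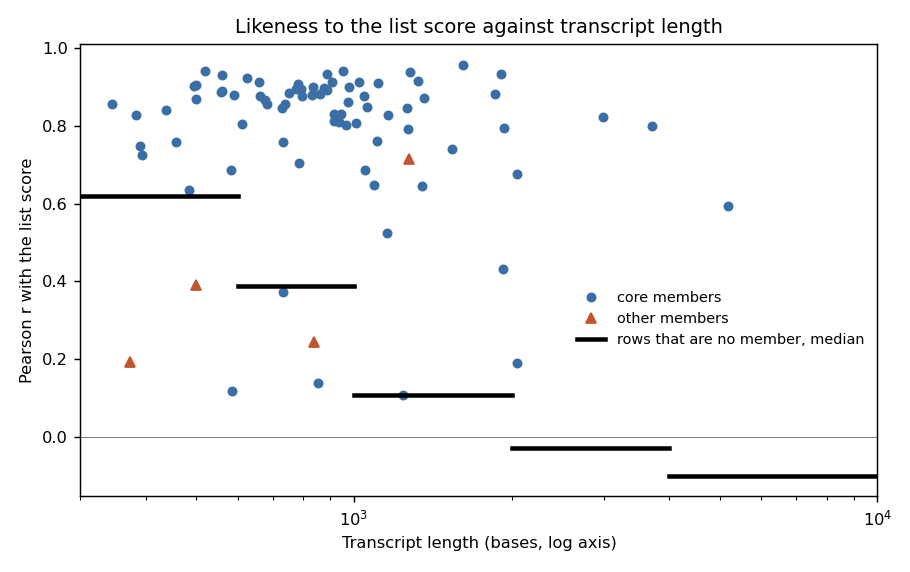
Pearson r with the list score (y axis, group and sex removed, 35 libraries) against transcript length in bases (x axis, log scale); circles are core members, triangles the other members, and black bars the median of rows that are no member in each length range. The black bars fall from 0.620 under 600 bases to -0.10 in the longest range, and most members lie above them.

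Many of the members that followed the score least share sequence with copies that have rows of their own. Of the core members, 23 have another matrix row that holds an unchanged 150-base stretch, the read length, of their transcript, and the retrocopy Rps27rt shares such stretches with Rps27. Of the 13 core members other than Rps12 with an r under 0.7, 8 have such a row. The other 5, Rps15a, Rps2, Rpl3, Rpl22 and Rpl41, had r of 0.594 to 0.686. The pairs below show the likeness in the first 30 coding bases, with the start codon in capitals, which are the same letters in the gene and in the copy.
Rps12: ATGgccgaggaaggcatagctgctggaggt
Rps12-ps3: ATGgccgaggaaggcatagctgctggaggt
Rpl10: ATGggccgccgccccgcccggtgttaccgg
Rpl10-ps3: ATGggccgccgccccgcccggtgttaccgg

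Over the aligned stretch, Rps12 and Rps12-ps3 (chromosome 19) were identical in 494 of 494 bases, and Rpl10 and Rpl10-ps3 (chromosome 9) in 737 of 737. Rpl12 and Gm10275 were identical over 634 bases and Rpl5 and Gm15500 over 1018. Of the 150-base windows of the transcript, 345 of 435 were found in other genes for Rps12 and 588 of 706 for Rpl10, and the rest were not. The sources used here do not give how the authors' counting placed reads that fit several loci, so the values of these members are uncertain.

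Rps12 had 0 reads in 25 of 35 libraries, 1 to 12 in 3 and at least 64 in 7, with the most in WT_abx_and_acetate 2 (263), WT_acetate 5 (229) and WT_control 1 (120). Rps12-ps3 had 965 to 2030 reads in every library. The fitted log2 folds of Rps12, such as -4.43 ± 1.89 for KO against WT in acetate, rest on which few libraries were not at 0 and are no measure of a fold. With the reads of both rows added, that value was -0.06 ± 0.09, and r with the score was 0.943.

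**Figure D4:**
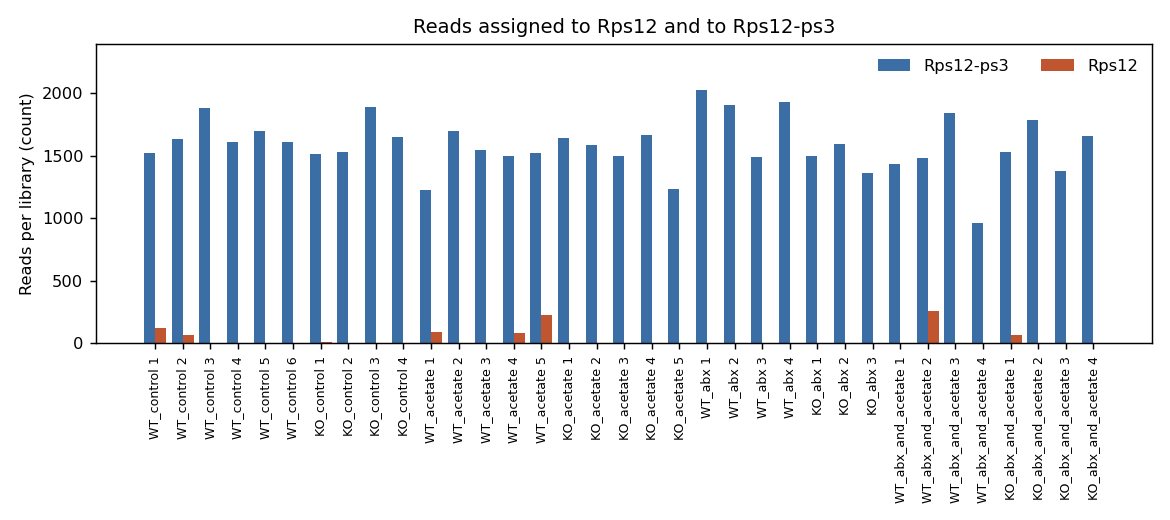
Reads per library (y axis, count) assigned to Rps12 (orange) and Rps12-ps3 (blue) in the 35 libraries (x axis). Rps12 is at 0 in 25 libraries and reaches 263 at most, while Rps12-ps3 has 965 to 2030 reads in each.

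The reads of such copies were then added to the 23 core members, an alternative chosen after seeing the data. Of these members, 19 had a higher r with the score after the addition (median 0.802 before, 0.856 after), and 20 had a lower SD within groups. All 9 with an r under 0.7, a group picked by its low r, rose from a median of 0.372 to 0.775. Rpl10 held 31.4% of the reads of its pair, and its r went from 0.140 to 0.861 and its SD from 0.211 to 0.0934. Rpl12 held 12.2% and went from 0.108 to 0.739, and Rpl5 held 11.4% and went from 0.189 to 0.775. The copies alone had r of 0.744 (Gm10275 for Rpl12), 0.784 (Gm15500 for Rpl5), 0.653 (Rpl10-ps3) and 0.921 (Rps12-ps3). For Rpl12, Rpl5 and Rps12, which held 1.64%, the sum thus mostly follows the copy's row. Rpl31 went from 0.687 to 0.848 and Rpl27 from 0.372 to 0.642.

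Rpl10, Rpl5, Rpl12 and Rps12 then had values nearer to the family's median under antibiotics. In each of these pairs most of the summed reads are those of the copy's row. For KO against WT the log2 fold was -0.16 ± 0.07 for Rpl10, -0.16 ± 0.07 for Rpl5, -0.17 ± 0.08 for Rpl12 and -0.21 ± 0.11 for Rps12, and 82 of 83 were below 0. The exception was Rps27rt, to which no reads were added. For WT_abx against WT_control it was 0.20 for Rpl10, 0.17 for Rpl5, 0.12 for Rpl12 and 0.19 for Rps12. No member was called with the copies added, and 50 had an unadjusted p under 0.05 in each of these comparisons. In the fits without copies added, 3.78% and 9.05% of all rows reached that p.

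**Figure D5:**
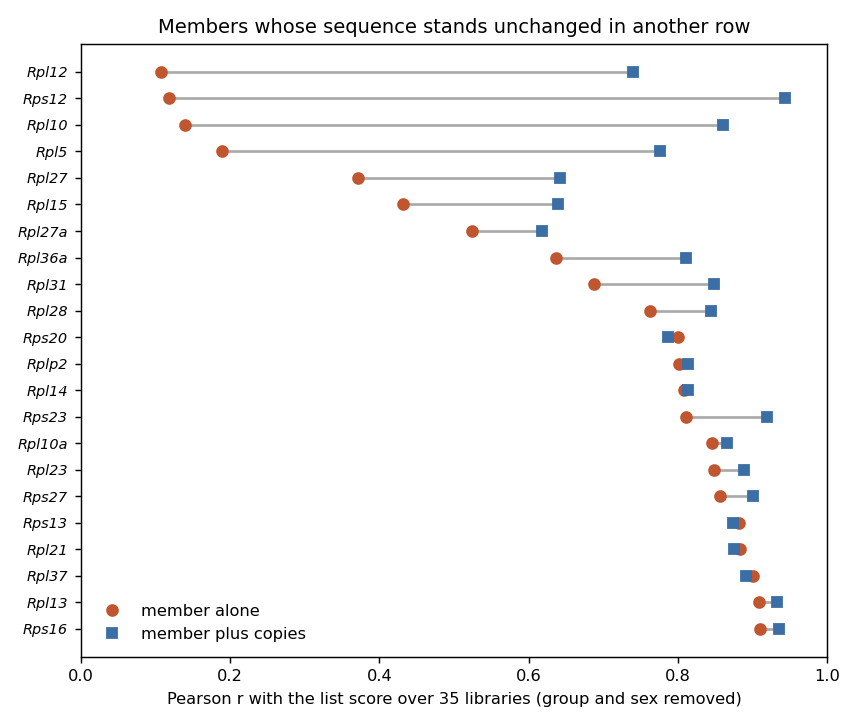
Pearson r with the list score (x axis, group and sex removed, 35 libraries) for 22 of the 23 core members that have an unchanged read-length stretch in another row (y axis); orange circles are the member alone and blue squares the member with the reads of its copies added. The circles of Rpl12, Rps12 and Rpl10 lie at 0.108 to 0.140 and their squares at 0.739 to 0.943.

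The paralogues and retrocopies matched by the rule differ in how far their sequence can be told from the parent. Rps27 and its retrocopy Rps27rt were identical over 341 of 341 aligned bases, and Rpl37 and Rpl37rt over 99.7%. The paralogue Rps27l shared 79.3% of its aligned bases with Rps27, Rpl36al shared 87.7% with Rpl36a, and Rps4l shared 81.4% with Rps4x. The first 30 coding bases show the difference for the Rps27 group.
Rps27: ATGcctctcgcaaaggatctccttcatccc
Rps27rt: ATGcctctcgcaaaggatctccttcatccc
Rps27l: ATGcccctggctagagatctgttacaccct
Counted from the A of the start codon, with the base of Rps27 first, Rps27l differs by T6C, C9G, A12T, A14G, G15A, C21G, C22T, T24A, T27C and C30T. Rps27l can therefore be counted apart, and Rps27rt, whose SD within groups was 0.709, cannot be told from Rps27 in this stretch.

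Genes of the same pathway were taken from lists and set beside the members. Other TOP mRNAs, mostly translation factors, were measured for 18 of 20: 18 were below 0 in KO against WT under antibiotics (median -0.11) and 16 above 0 in WT_abx against WT_control (median 0.10), and none was called in either.

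Genes that build ribosomes did not show the same counts. Of 29 measured ribosome biogenesis factors, 15 were below 0 in KO against WT under antibiotics (median -0.02), and 19 were below 0 in WT_abx against WT_control (median -0.05). The 22 genes of the mTORC1 pathway had 10 below 0 in KO against WT under antibiotics (median 0.01). Over libraries, the biogenesis list score had r = -0.447 with the members' score and the TOP list score r = 0.840 (n = 35 for each). With group and sex removed these were -0.473 and 0.770. These scores share libraries, scaling and the length trend.

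The ribosomal proteins of mitochondria, which are encoded in the nucleus and form a separate ribosome, had 58 of 78 below 0 in KO against WT under antibiotics (median -0.07) and 46 above 0 in WT_abx against WT_control (median 0.02). Nuclear genes of oxidative phosphorylation, many of them also short, had 79 of 81 below 0 in KO against WT under antibiotics (median -0.16). An unadjusted p under 0.05 was reached by 25 of them, where 3.78% of all rows reached it. Of rows that are no member, 87.7% of the 57 under 600 bases and 84.0% of the 319 from 600 to 1000 bases were below 0. In WT_abx against WT_control, 74 of the oxidative phosphorylation genes were above 0 (median 0.08). The list score of these genes had r = 0.791 with that of the members (0.783 with group and sex removed).

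Across these lists and the 16 comparisons, the only calls were in WT with both agents against control, where 0.726% of all rows were called: 1 of 18 TOP mRNAs, 1 of 22 mTORC1 genes and 1 of 29 biogenesis factors. Eif4b, an initiation factor with a TOP mRNA, rose there (log2 fold 0.25 ± 0.06, adjusted p = 0.0382), as did Rragc, a GTPase that recruits mTORC1 to lysosomes (0.25, adjusted p = 0.0438). Rrp9, which takes part in rRNA processing, fell (-0.30, adjusted p = 0.0355).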

How the data were processed

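The deposited matrix holds log2 CPM with 14870 named rows for 35 libraries; per the submitters' processing notes, limma was among the tools, with no version. Values have the voom form, log2 of reads plus 0.5 over an effective library size, and 100.0% came out as whole reads within 0.01. The sources used here do not give the aligner, counter, genome build or filter. Of the symbols, 14438 (97.1%) and all 83 members matched GENCODE M21 (GRCm38), used for lengths and copies; start-site sequences are from RefSeq (GRCm38.p6).

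Fits used limma 3.58.1 (R 4.3.3), with the deposited log2 values as the response: 8 group means plus labelled sex over 35 libraries, 26 residual degrees of freedom, prior variance following the mean, 16 comparisons, 2-sided p adjusted by Benjamini-Hochberg over all rows, threshold 0.05. The code was tested on simulated data. The members and lists were chosen with earlier results of these data known. Named members were chosen among those past the threshold, the 3 with the largest fold, the smallest fold and the smallest p in each comparison, fixed examples per subunit, paralogues, the extremes in level, spread and likeness to the list score, and the 10 other rows most like it. Alternatives changed weights, scaling, pseudocount, filter, covariates, libraries and members; the list score without Rps12, removal of the length trend and adding the reads of copies were chosen after seeing the data. Rows of copies were found by unchanged 150-base windows with Python 3.11.15 and Biopython 1.88. Replicate numbers follow the order of the records and pair no libraries. Depth was 12.8 to 28.0 M (mega) reads, where 0.5 read stands at -4.67 to -5.83 log2 CPM. Proteins were not analysed here, and a few genes that meet these rules are not reported here.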

Additional observations from a re-analysis of the deposited data

Results flagged for a closer look

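In groups of 4 to 10 libraries, the highest or lowest library was set against the others by Dixon's test, for the members' share, their list score and the fixed examples. Of 203 groups tested, 18 had a library that stood apart; chance alone gives about 1 in 20.

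The library labelled WT_acetate 5 accounts for several. Its members' share of CPM was 1.0488%, against 0.887% to 0.913% in the other 4, and its list score 0.157 against -0.04 to 0.01. Rps3 (8.001 log2 CPM), Rps27a (6.67) and Rpl11 (7.25) were likewise higher there than in the rest of the group. Its Shank3, Acr and Y-linked genes also went against its labels.

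KO_control 3 stood above the rest of its group in Rpsa (8.04 log2 CPM), Rps6 (7.56) and Rpl31 (6.30). WT_abx 3 stood below its group in Rpl38 (5.58), Rpl39 (5.09) and Rpl41 (7.16). WT_abx_and_acetate 4, the shallowest library, was low in Rpl3 (8.77) and high in Rpl31 (6.52). Rpl31 was low in WT_acetate 4 (5.93), Rpl10 was low in KO_control 4 (4.98), and Rpl41 was high in KO_acetate 4 (7.42). Rps12 stood apart in WT_abx_and_acetate 2 (3.51) and KO_abx_and_acetate 1 (1.66), while the other libraries of these groups were at or near 0 reads.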

How the results depend on the processing

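No member was called in any of the 16 comparisons under any alternative, and all 370 such counts were 0. The alternatives were voom weights, other scaling, another pseudocount, a filter on low values, other covariates, fewer groups, any library left out and copies added. In only 169 of the 370 was any row of the matrix called. Elsewhere a count of 0 says nothing particular to the members. The planned edgeR and DESeq2 fits were not run, although whole reads could be recovered. Medians of the members' folds kept their sign under every alternative for KO against WT under abx (-0.25 to -0.11) and over treatments (-0.07 to -0.04), abx (0.11 to 0.23), acetate (0.02 to 0.10) and abx_and_acetate (0.07 to 0.12) against control in WT, acetate (0.01 to 0.16) and abx_and_acetate (0.04 to 0.17) against control in KO, abx_and_acetate against abx in WT (-0.12 to -0.0053) and KO (0.04 to 0.16), and the interaction with abx (-0.23 to -0.11). They changed sign for KO against WT in control (-0.08 to 0.01), acetate (-0.04 to 0.05) and abx_and_acetate (-0.05 to 0.01), abx against control in KO (-0.05 to 0.05) and the interactions with acetate (-0.02 to 0.08) and abx_and_acetate (-0.05 to 0.07); the cause was not tested. Core members alone took 0.878% to 1.003% of CPM by group. With only the groups compared, no value can be had over treatments. No paired analysis was possible because replicate numbers only follow the order of the records. Values of Rps12 rest on the few libraries where it was not at 0 reads; the cause was not tested.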
